A study of Homo sapiens with 8 samples.

Results

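The genes described here are the MYB family (MYB, MYBL1 and MYBL2), FOXM1, subunits LIN9, LIN37, LIN52 and LIN54 of the MuvB core and the pocket proteins RBL1 and RBL2. The LIN subunits and pocket proteins belong to the DREAM complex, and MYBL2 and FOXM1 bind its MuvB core at another stage. MYB and MYBL1 are included as relatives of MYBL2. All these genes were chosen by name, with earlier results of these data known. Every probe set that the platform annotation assigned to 1 of them alone was used, which gave 10 of 19775 genes and 21 of 54613 probe sets. MDA-MB-231, an established basal-like human breast cancer cell line, was transfected either with a control siRNA (siCTRL, 4 arrays) or with an siRNA against HMGA1 (siHMGA1, 4 arrays). Both groups were the same line without other genetic change, and the labels call the 4 samples of each group biological replicates. The study used siRNA at 100 nM, and silencing in these arrays rested on a single siRNA against HMGA1, a small chromatin protein that binds AT-rich DNA. Total RNA was hybridised to Affymetrix expression arrays, and all values below are normalised log2 signals or differences between them. In such bulk samples fewer cells in a cycle phase and less RNA per cell cannot be told apart.

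The DREAM complex joins the MuvB core to RBL1 or RBL2 and to a repressive E2F, and it holds cell cycle genes silent in resting cells. When cells enter the cycle the pocket protein and E2F leave, and MuvB binds MYBL2 and then FOXM1, which switch on genes needed for G2 and mitosis. LIN54 is the subunit that touches DNA, at a short element called CHR, whereas the E2F partner reads E2F elements in promoters of G1 and S phase genes.

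Promoter letters are shown first because several of these genes are themselves described as cell cycle genes. RefSeq windows of 300 bases (250 before the start site and 50 from it on, build GRCh38.p14) were given for 8 of the 10 genes, in 13 windows, and FOXM1 and MYBL1 are only named. Both strands were searched for CHR (TTTGAA or TTCGAA), E2F (TTTCCCGC, TTTGGCGC, TTTGGCGG or TTTCCCGG), forkhead (GTAAACA or ATAAACA) and CCAAT letters. The core TTGGCGGG was added after the windows had been read, and it can overlap TTTGGCGG by all but its last base. The stretches below run 5′ to 3′ along the gene, with capitals marking CHR or E2F letters. They come from chr6:135181227-135181274 on the plus strand for MYB, chr20:43667053-43667100 on the plus strand for MYBL2, chr1:226309199-226309244 on the minus strand for LIN9, chr4:83010898-83010943 on the minus strand for LIN54, chr14:74084911-74084958 on the plus strand for LIN52 and chr20:37095986-37096033 on the minus strand for RBL1.
MYB: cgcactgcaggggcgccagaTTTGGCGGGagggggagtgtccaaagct
MYBL2: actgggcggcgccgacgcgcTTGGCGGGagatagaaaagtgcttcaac
LIN9: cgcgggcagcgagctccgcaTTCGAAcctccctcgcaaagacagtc
LIN54: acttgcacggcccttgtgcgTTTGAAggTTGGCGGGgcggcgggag
LIN52: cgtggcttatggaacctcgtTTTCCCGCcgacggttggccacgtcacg
RBL1: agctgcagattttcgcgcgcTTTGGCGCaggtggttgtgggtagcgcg

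CHR letters were found in windows of LIN9, LIN37, LIN54 and RBL2, and 16.4% of all 35116 promoter windows hold them. The E2F letters were found in MYB, LIN52 and RBL1 (4.31% of all windows), and the added core in MYB, MYBL2 and LIN54 (1.20%). Forkhead letters were found in MYB and RBL2 (7.43%), and CCAAT letters in LIN37, LIN52 and RBL2 (34.6%). In LIN54 the CHR and the added core lie side by side, whereas in LIN9 a second CHR match starts at position -3 from the start site. The AT content of the 13 windows ran from 23.7% in LIN9 to 48.7% in another window of LIN9, and the median of all windows was 41.3%. A gene is named here if any of its windows matched, whereas the percentages are of single windows, so the 2 are not like measures. A match describes the letters only.

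**Figure D1:**
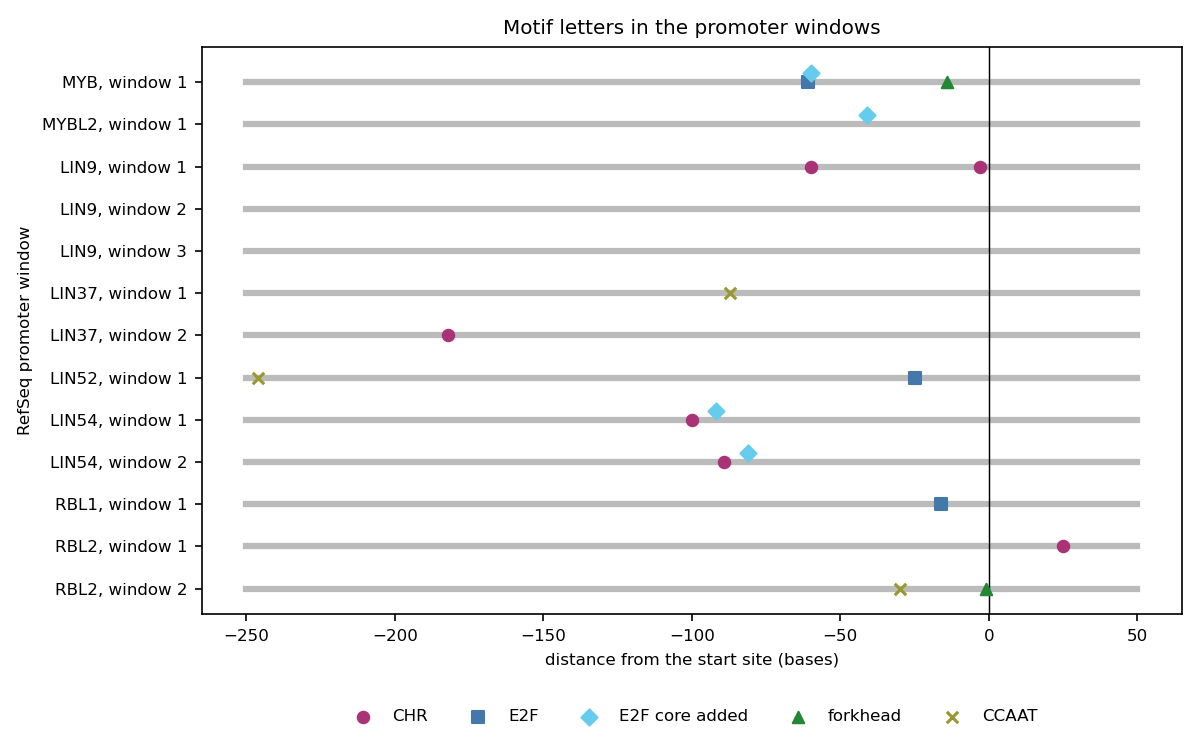
Motif letters in the 13 RefSeq promoter windows of 8 genes, plotted by the distance in bases of the match's first base from the start site (0). Each grey bar is 1 window and each marker 1 match. LIN9 has CHR matches at -60 and -3 in its first window and none in the others.

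The targeted gene was lower in the siHMGA1 arrays than in the siCTRL arrays. The brighter HMGA1 probe set, 206074_s_at, read 12.62, 12.84, 12.69 and 12.85 in siCTRL and 10.11, 10.37, 10.29 and 10.57 in siHMGA1, a log2 difference of -2.42 (SE 0.098, n = 4 per group, limma adjusted p = 5.2e-08). The dimmer probe set, 210457_x_at, differed by -0.90. Array medians lay between 6.07 and 6.12, and arrays correlated at 0.995 to 0.998 within groups and at 0.989 to 0.992 between them. The 8 markers listed as basal-like mesenchymal were VIM, CD44, EGFR, the keratins KRT8 and KRT18, CAV1, AXL and MSN. Their mean signal was 13.05 to 13.19 in siCTRL and 13.12 to 13.19 in siHMGA1, with none of the 8 under a log2 signal of 6. Luminal and adhesion markers averaged 7.37 to 7.50 in siCTRL and 7.54 to 7.64 in siHMGA1, with PGR, FOXA1 and CDH1 under 6. In the same list KRT19, EPCAM, GATA3 and ERBB2 were well above it, with means of 12.35, 10.13, 9.79 and 8.49 over the 8 arrays. Leukocyte markers averaged 6.09 to 6.16 in siCTRL and 6.20 to 6.26 in siHMGA1. Some single markers changed more than these list means. By limma (adjusted p under 0.05) 2 of 8 basal-like markers were lower and 2 higher, with MSN at -0.34 and EGFR at 0.32. Of the 8 luminal and adhesion markers KRT19 and EPCAM were higher, by 0.69 and 0.38, and none was lower. Of 6 leukocyte markers 2 were higher, among them PTPRC by 0.50 at a low mean signal of 4.92, and none was lower. The part of these marker shifts in the results was not tested.

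Of the 10 genes, 8 were lower after HMGA1 silencing and none was higher, taking the brightest probe set of each gene. These were MYBL2, LIN9, FOXM1, MYB, LIN54, RBL1, MYBL1 and LIN52, whereas LIN37 and RBL2 did not pass the test. Over all genes, 14.7% were lower and 15.8% higher by the same rule (limma, Benjamini-Hochberg adjusted p under 0.05). The 10 genes were chosen with earlier results of these data known, so this is not an unselected comparison. The median log2 difference was -0.68 for the 10 genes and 0.01 for all genes. By probe set, 8 of 21 were lower and none higher, against 10.4% and 11.7% of all probe sets, and the medians were -0.19 and 0.01. All 8 kept their call with cyclic loess and with each array centred on 9 housekeeping genes, of which 2 were lower and 2 higher. The lower ones, TBP and HPRT1, differed by -0.64 and -0.34, and the higher ones, YWHAZ and SDHA, by only 0.18 and 0.17. That centring moved the calls over all probe sets from 5695 lower and 6385 higher to 4350 lower and 10073 higher. At an unadjusted limma p under 0.05 the counts of the 21 were 10 lower and 1 higher, against 7992 lower and 9265 higher of all 54613 probe sets. All 8 lower probe sets had groups that did not overlap, as did 25.5% of all probe sets (32.6% with 1 probe set a gene), and each then reached the smallest p (0.0286, two-sided) of an exact permutation test of 4 against 4.

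**Figure D2:**
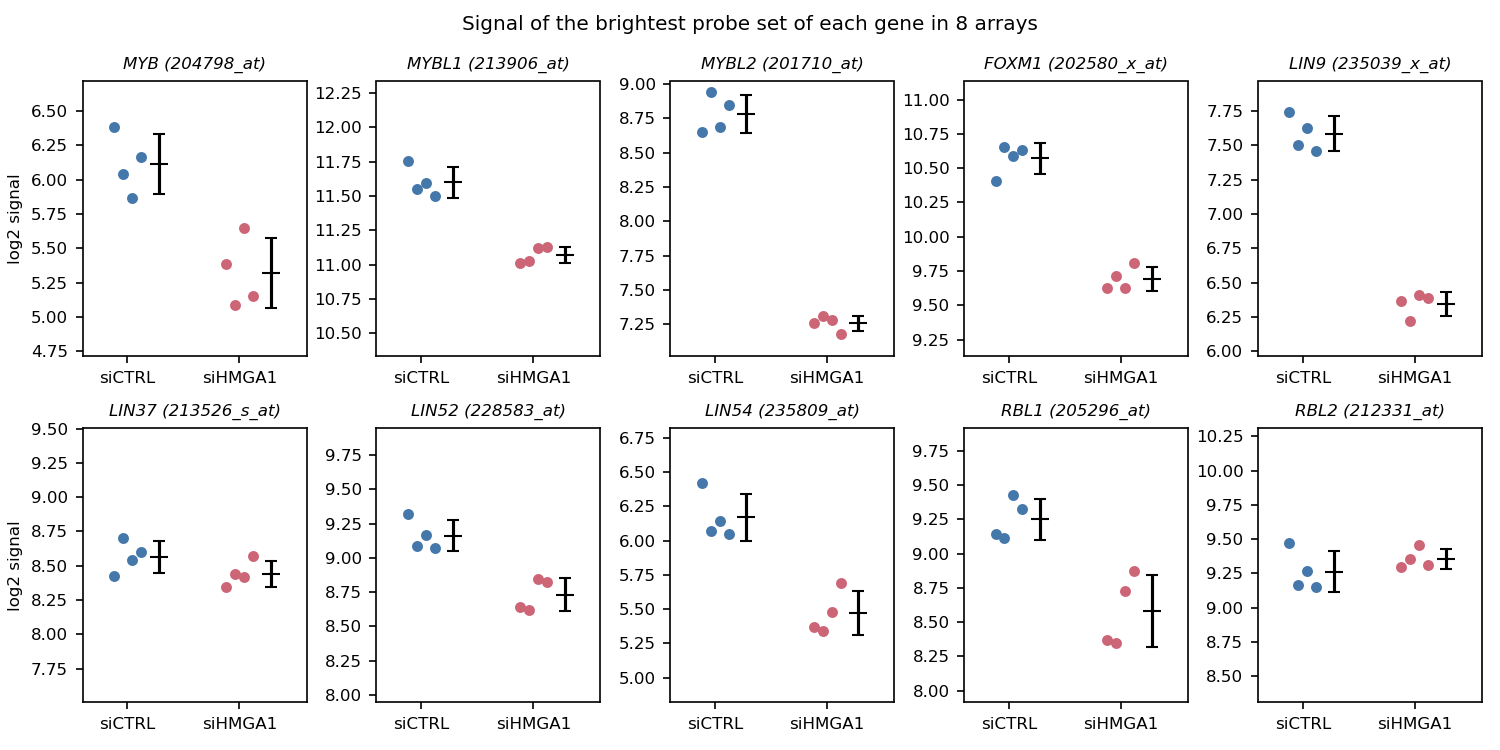
Log2 signal of the brightest probe set of each of the 10 genes in the 4 siCTRL (blue) and 4 siHMGA1 (red) arrays, with the group mean and SD in black. Every panel spans the same log2 range, and the groups overlap only for LIN37 and RBL2.

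Within the MYB family, MYBL2 fell most. MYBL2, which joins MuvB to activate G2 and M phase genes, read 8.65, 8.94, 8.69 and 8.85 in siCTRL and 7.26, 7.31, 7.28 and 7.18 in siHMGA1 (probe set 201710_at). All siHMGA1 arrays lay more than 1 log2 unit below every siCTRL array, and the spread among them was small (SD 0.057 against 0.136). The log2 difference was -1.53 (SE 0.078, limma adjusted p = 1.71e-07), a linear ratio of 0.347, which ranked 121 from the lowest of 54613 probe sets. At the stricter thresholds of the study's methods (adjusted p under 1e-04 and a log2 change beyond 1.4), MYBL2 was the 1 gene of the 10 that passed, as did 0.315% of all probe sets and 0.491% of all genes in this direction.

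MYBL1, a family member best known for its role in male meiosis, read 11.76, 11.55, 11.59 and 11.50 in siCTRL and 11.01, 11.02, 11.12 and 11.12 in siHMGA1 (213906_at). The groups did not overlap, and the difference was -0.53 (SE 0.073, limma adjusted p = 0.000218). Its other probe sets, 231268_at and 237014_at, differed by -0.13 and -0.05 and did not pass. MYB, the founding member and a regulator of blood progenitors, read 6.38, 6.04, 5.86 and 6.17 in siCTRL and 5.38, 5.09, 5.65 and 5.15 in siHMGA1 (204798_at). The groups lay apart by a narrow gap, between the third array of each, and the difference was -0.80 (SE 0.133, limma adjusted p = 0.000887). The signal was low, with 43.9% of all probe sets having a lower mean. The other MYB probe set, 215152_at, differed by -0.19 and did not pass.

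FOXM1, the forkhead factor that drives mitotic genes, had a single probe set, 202580_x_at. It read 10.41, 10.65, 10.59 and 10.64 in siCTRL and 9.62, 9.71, 9.63 and 9.81 in siHMGA1. Every siHMGA1 array was below every siCTRL array, and the log2 difference was -0.88 (SE 0.076, limma adjusted p = 6.47e-06, linear ratio 0.544). The suffix _x_at marks probes that may also match other transcripts, and no second probe set was there to set beside it.

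Of the 4 LIN subunits of the MuvB core 3 fell, each on 1 probe set, and RBBP4, the remaining core subunit, is described with the other partners. LIN9, a scaffold subunit, read 7.74, 7.50, 7.63 and 7.46 in siCTRL and 6.37, 6.22, 6.41 and 6.39 in siHMGA1 on probe set 235039_x_at. The groups were far apart, with a difference of -1.24 (SE 0.079, limma adjusted p = 7.72e-07). The other LIN9 probe sets, 1552771_a_at and 230365_at, differed by only -0.16 and -0.35 with adjusted p = 0.299 and 0.0803, and 16.6% and 12.7% of all probe sets had a lower mean. With probe sets marked _s_at or _x_at left out, LIN9 was no longer called (-0.16, limma adjusted p = 0.264).

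LIN54, the DNA-binding subunit, read 6.42, 6.07, 6.14 and 6.05 in siCTRL and 5.37, 5.34, 5.48 and 5.69 in siHMGA1 (235809_at, the only one). The groups did not overlap, at a low signal (45.6% of probe sets had a lower mean), and the difference was -0.70 (SE 0.101, limma adjusted p = 0.000323). LIN52, whose phosphorylation by DYRK1A promotes DREAM assembly, read 9.32, 9.08, 9.17 and 9.07 in siCTRL and 8.64, 8.62, 8.85 and 8.82 in siHMGA1 (228583_at). It fell by 0.43 on the log2 scale (SE 0.082, limma adjusted p = 0.00224), whereas its other probe set, 231959_at, differed by -0.12 and did not pass. LIN37, a subunit needed for repression by DREAM, read 8.42, 8.70, 8.54 and 8.60 in siCTRL and 8.34, 8.44, 8.42 and 8.57 in siHMGA1 (213526_s_at). Here the groups overlapped, and the difference of -0.13 had a 95% interval from -0.30 to 0.04. Its second probe set, 232534_at, differed by -0.02.

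The pocket proteins RBL1 (p107) and RBL2 (p130) gave different values. RBL1, itself described as an E2F target, read 9.14, 9.11, 9.42 and 9.32 in siCTRL and 8.37, 8.35, 8.73 and 8.87 in siHMGA1 (205296_at). The groups did not overlap, but the siHMGA1 arrays were uneven (SD 0.261), and the difference was -0.67 (SE 0.122, limma adjusted p = 0.00164). The other RBL1 probe sets did not pass and did not share a direction: 1555004_a_at differed by -0.27 (limma adjusted p = 0.0595), 1555003_at by -0.04 and 1559307_s_at by 0.35 (limma adjusted p = 0.0502). With the mean of its 4 probe sets in place of the brightest, RBL1 differed by -0.16 and was not called (limma adjusted p = 0.129).

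RBL2, the pocket protein typical of resting cells, read 9.47, 9.17, 9.26 and 9.15 in siCTRL and 9.30, 9.36, 9.46 and 9.31 in siHMGA1 (212331_at). The groups overlapped, the difference was 0.09, and its 95% interval ran from -0.09 to 0.27. The second probe set, 212332_at, differed by 0.08.

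**Figure D3:**
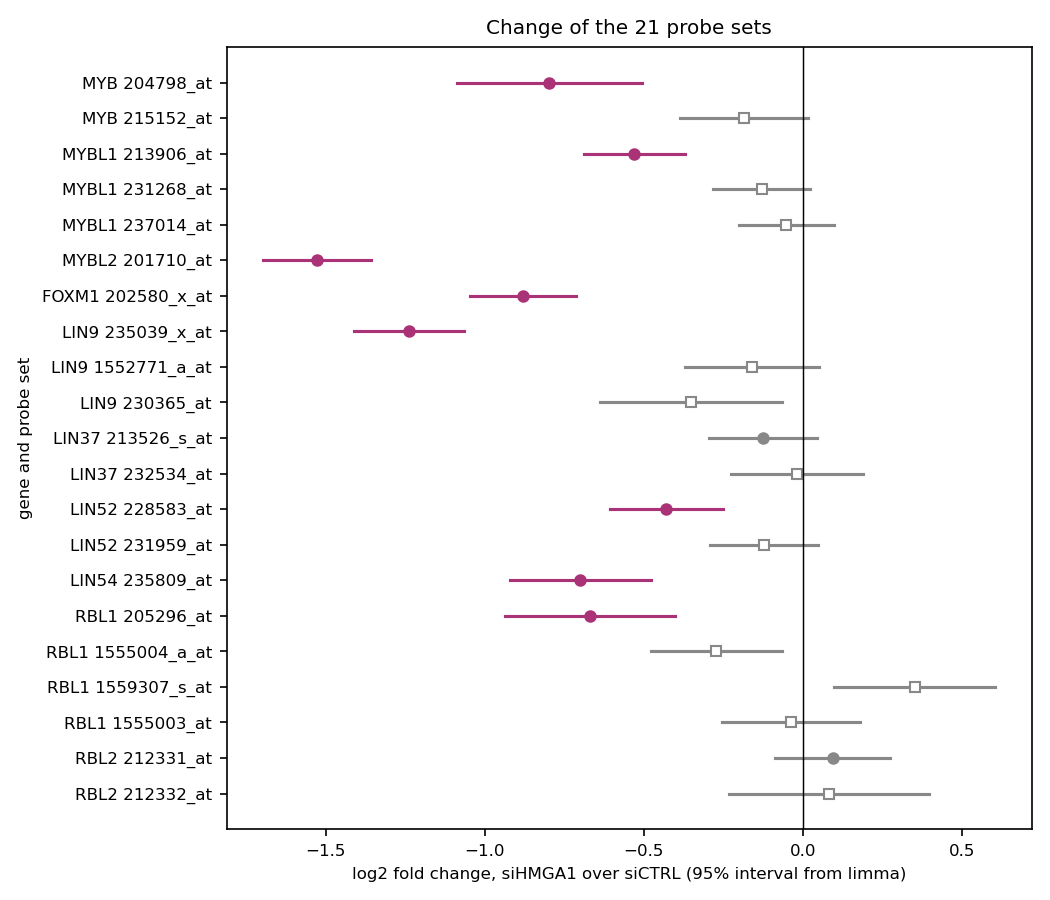
Log2 fold change of siHMGA1 over siCTRL for all 21 probe sets, with 95% intervals from limma. Filled circles are the brightest probe set of a gene, open squares the others, and purple marks an adjusted p under 0.05. All 8 purple points are the brightest of their gene.

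Where a gene had several probe sets, the dimmer ones changed less. In 7 genes with over 1 probe set there were 11 pairs of the brightest and another, and in 11 of 11 the other had the smaller absolute difference. An exact two-sided permutation test of the within-array difference reached its smallest p, 0.0286, in 6 pairs, which became 0.0524 after adjustment over the 11 pairs, so that none passed. No pair could pass unless more than 6 of the 11 reached that p. With limma on the same differences 8 of 11 passed. Its SEs were nearly equal over the pairs (0.154 to 0.157), so they hardly reflect the spread of each pair. Pairs of the same gene also share the brightest probe set.

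From the largest fall upwards the order was MYBL2, LIN9, FOXM1, MYB, LIN54, RBL1, MYBL1, LIN52, LIN37 and RBL2. None of the 9 pairs of neighbours in this order differed after adjustment over the 9 (exact two-sided permutation tests, smallest adjusted p = 0.129), although LIN9 and FOXM1, and MYBL1 and LIN52, reached the smallest p of 0.0286. A pair could pass this adjustment only if most of the 9 pairs reached that smallest p, so the lack of calls decides little. This test was chosen after the values were seen. After it had given no call, all 45 pairs were also tested as 1 family: 29 passed at adjusted p = 0.0443, those 2 neighbours among them, with unchanged exact permutation p-values. That count depends on the family chosen for the adjustment, and the order of neighbours is therefore given as a description.

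The genes that these factors regulate were mostly lower as well. Of 42 G2 and M phase genes described as targets of MYBL2-MuvB and FOXM1, 42 were lower (median -0.84), against 14.7% of all genes. KIF23, a motor needed for cytokinesis, read 10.75, 10.67, 10.71 and 10.80 in siCTRL and 8.24, 8.27, 8.53 and 8.59 in siHMGA1, a difference of -2.32 (SE 0.085). The mitotic motor KIF4A differed by -1.65, and AURKB and CDCA8, members of the chromosomal passenger complex, by -1.60 and -1.45. With _s_at and _x_at probe sets left out, 27 of the 32 genes still measured were lower, and KIF23 differed by -1.22.

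Of 28 G1 and S phase genes described as E2F and DREAM targets, 27 were lower (median -0.85), against 14.7% of all genes. CCNE2, a cyclin of the G1 to S transition, read 10.36, 10.24, 10.50 and 10.25 in siCTRL and 8.01, 7.71, 8.06 and 8.44 in siHMGA1, a difference of -2.28 (SE 0.128). E2F8, a repressive E2F, differed by -1.88, the DNA repair gene BRCA1 by -1.70, and UHRF1, which maintains DNA methylation, by -1.43. The gene not called was CCNE1, at -0.02, chosen for mention after its value was seen. In both lists none was higher by limma, also at an unadjusted p under 0.05. These lists were drawn up with earlier results of these arrays known and are not independent evidence of a direction.

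The other DREAM subunits and related genes did not share a direction. RB1 and the kinase DYRK1A were listed with them but are not part of the complex as described above. Of 7, RB1, the retinoblastoma protein, was lower (-0.87, SE 0.079), and E2F5, a repressive E2F, was higher (0.61, SE 0.065), both on their brightest probe set. The second probe set of each, RB1 211540_s_at and E2F5 222051_s_at, differed by -0.11 and -0.01 and did not pass. Over all genes 14.7% were lower and 15.8% higher. E2F4, TFDP1, RBBP4 and DYRK1A differed by -0.06, 0.07, -0.12 and -0.03 and did not pass. TFDP2, an E2F dimer partner, depended on the probe set. Its brightest, 226157_at, was higher by 0.35 (limma adjusted p = 0.0022 over all probe sets), but 203588_s_at, with nearly the same mean signal, was lower by 0.22 (difference -0.22, limma adjusted p = 0.0264), so that no direction can be given for TFDP2. For RBBP4, too, 3 dimmer probe sets passed in the other direction, by 0.55, 0.44 and 0.33.

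Among 12 upstream cyclins, kinases and inhibitors 4 were lower and 3 higher (median -0.02), against 14.7% and 15.8% of all genes. SKP2, which marks the inhibitor CDKN1B for degradation, differed by -1.24, and the kinases CDK4, CDK2 and CDK6 by -0.91, -0.83 and -0.22. CDK6 was not called with housekeeping centring (-0.14, limma adjusted p = 0.0683). The cyclins CCND2 and CCND3 were higher, by 1.10 and 0.35, and so was CDKN1B, by 0.31, named after its value was seen. Of 10 genes described as targets of MYB none was lower by limma, also at an unadjusted p under 0.05, and MYC and CXCR4 were higher, by 0.54 and 0.35, against 15.8% of all genes. Among these targets GFI1, ELANE, KIT and MPO had low mean log2 signals of 3.86, 4.27, 4.46 and 4.63, where a fall could hardly be measured.

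**Figure D4:**
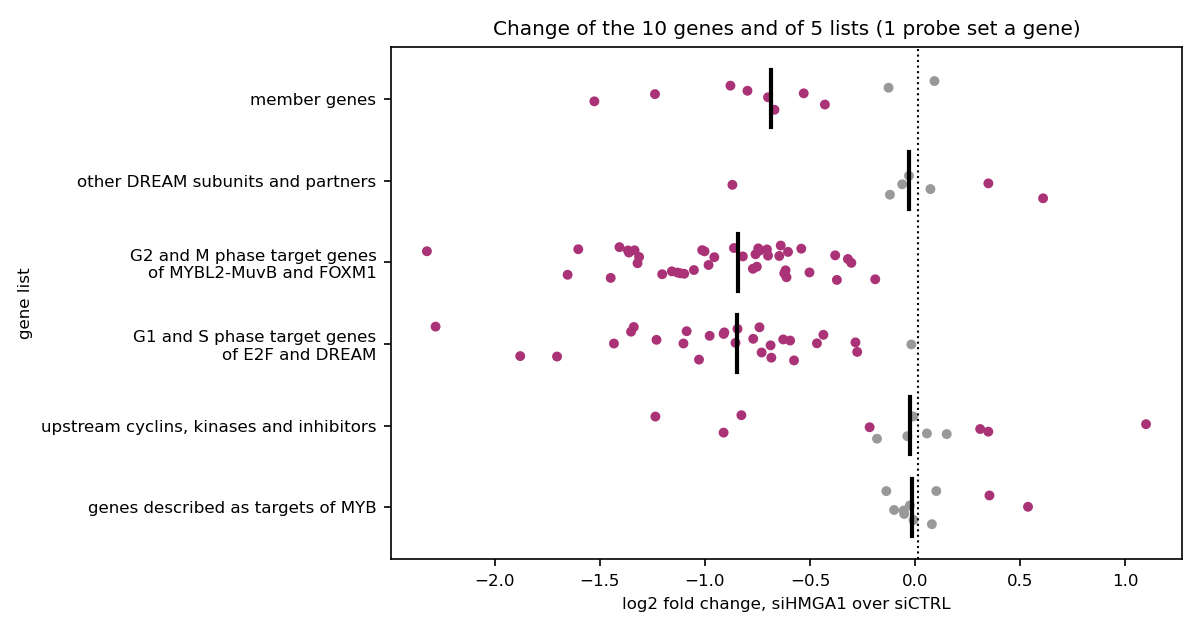
Log2 fold change of siHMGA1 over siCTRL for the 10 genes and for 5 lists of related genes, with 1 probe set a gene. Purple points passed an adjusted p of 0.05, black bars are list medians and the dotted line is the median of all genes (0.01). All 42 points of the G2 and M phase list lie below 0.

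For 4 of the genes, the genes with the most similar values were sought by the root mean square difference over the 8 arrays after subtraction of each gene's siCTRL mean, among 12703 genes. Closest to MYBL2 were CISD3, ADPGK and CDCA8 (0.0868, 0.0980 and 0.100), and closest to FOXM1 were CDCA5, ORC1 and RCCD1 (0.0372, 0.0549 and 0.0559). LMLN, TMF1 and PHF19 lay closest to LIN9 (0.0539, 0.0564 and 0.0569), and SYNM, RAB30 and DPY19L4 to RBL2 (0.0316, 0.0391 and 0.0396). Since all 8 arrays share the group difference, this likeness mostly ranks genes by their change.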

How the data were processed

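The authors deposited log2 signals per probe set for 8 arrays, made with RMA in the affy package as the submitters' processing notes list them. RMA scales arrays to a common distribution, so changes are relative to the other probe sets. The methods describe 2 array types and differing replicate numbers, and the labels and the deposited table (54675 probe sets, 4 arrays per group) were followed. After 62 control probe sets were left out, 41091 had 1 gene, 1801 several and 11721 none in the platform annotation, and 54 identifiers had no match in RefSeq. Groups were compared with limma 3.58.1 in R 4.3.3 (lmFit and eBayes, Benjamini-Hochberg over all features), on 54613 probe sets or on 19775 genes by their brightest probe set (10523 genes had several). The fit was tested on simulated data. Exact permutation tests over arrays were used for single values. p-values measure the spread between these samples, and the number of arrays limits the precision.

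The genes and lists were chosen with earlier results of these data known. Named genes were all 10 genes and HMGA1, per list up to 4 genes with the largest called change in its main direction and up to 2 in the other, and the 3 closest genes to MYBL2, FOXM1, RBL2 and LIN9 among those with a mean of at least 6. Some listed genes are not reported here. Alternatives were a replicate block, cyclic loess, centring on housekeeping genes, a filter on low signals, other variance models, array weights, the methods' t-test, the study's thresholds, other probe set choices and leaving out each array.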

Additional observations from a re-analysis of the deposited data

Results flagged for a closer look

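In 106 groups of 4 arrays examined, 4 held an array whose gap to the nearest other exceeded Dixon's critical value for 4 samples as a share of the group's range, where chance alone gives about 1 in 20 groups. For LIN52 (231959_at) the first siCTRL array was low, at 7.63 against 7.79 to 7.81 in the others (gap 0.885 of the range). For TFDP2 (226157_at) the siHMGA1 array of replicate 4 was low, at 8.71 against 8.85 to 8.87 (0.889). For CCND2 (200953_s_at) the first siCTRL array was high, at 7.50 against 7.21 to 7.25 (0.855). For SYNM (212730_at) the siHMGA1 array of replicate 3 was high, at 9.99 against 9.87 to 9.89 (0.846).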

How the results depend on the processing

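The 8 called probe sets kept their direction and call under every alternative run on probe sets except the study's thresholds, and except that MYB 204798_at and LIN54 235809_at were left out by the filter on low signals, with MYBL2 between -1.57 and -1.45 and MYB between -0.91 and -0.71. Under the study's thresholds 1 of 21 probe sets and 1 of 10 genes was lower. RBL1 1559307_s_at became 1 higher probe set, where there had been 0, with centring on housekeeping genes and with trended and robust eBayes, and leaving out single arrays gave 0 to 1 (1 without siCTRL replicate 4, 0.46, and without siHMGA1 replicate 2, 0.43). Of the uncalled probe sets RBL1 1555004_a_at became lower with cyclic loess (-0.29), with the low-signal filter (-0.27) and without siHMGA1 replicate 4 (-0.36), and LIN9 230365_at with array weights (-0.38) and without siCTRL replicate 2 (-0.48). Centring on housekeeping genes moved the median of all probe sets from 0.01 to 0.09 and the calls from 5695 lower and 6385 higher to 4350 lower and 10073 higher. Under it MYBL1 237014_at (0.024), LIN37 232534_at (0.056) and RBL1 1555003_at (0.039) turned positive, all uncalled. Without single arrays, 3 uncalled probe sets changed sign: LIN37 232534_at ranged from -0.104 to 0.029, RBL1 1555003_at from -0.142 to 0.013 and RBL2 212332_at from -0.065 to 0.204.

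The sample titles use the same experiment numbers in both groups, but the main fit took no pairing. Correlations of same-numbered deviations were 0.0503, 0.217, 0.0661 and -0.141, and so few values cannot decide whether the arrays were paired. With the replicate block 8 member probe sets were lower and 1 was higher.

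Of the other DREAM subunits and related genes 2 were lower with cyclic loess. Without _s_at and _x_at probe sets 1 of 6 of them was higher, 27 of 32 G2 and M phase genes and 2 of 7 upstream genes were lower, and 1 of 7 MYB targets was higher. With probe sets averaged per gene 1 of 10 MYB targets was lower. Limma called 8 of 11 pairs of probe sets where the permutation test called 0. Adjusting over all 45 pairs of genes, an alternative chosen after the 9 neighbours had given 0, called 2 neighbours, with the same unadjusted p-values. Leaving out any 1 array gave 0 calls in both tests. The causes were not tested beyond these constructions.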
